A study of Mus musculus with 4 samples.

Results

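The heavy chain V genes of the mouse immunoglobulin locus were examined in B220+ B cells sorted from the spleen. The members were all rows whose gene symbol starts with Ighv, which gave 185 of the 55401 genes in the count tables, and they were grouped into V families by the number before the first hyphen. The 185 rows carry 183 symbols, because Ighv1-13 and Ighv5-8 occur on 2 rows each. The annotation (GENCODE M21, GRCm38, which is mm10) places them between 113572927 and 116010093 on chromosome 12, and it lists 113 as functional V genes, 70 as V pseudogenes and 2 as IG_LV genes. They form 16 families, and the largest, Ighv1, has 93 members.

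Both groups of mice carried the Cre recombinase under control of the Mb1 (Cd79a) promoter, which is active throughout the B lineage, on a C57BL/6J background. NSD1B WT mice (Mb1-Cre+ NSD1+/+) had intact alleles of Nsd1, a methyltransferase of lysine 36 of histone H3. NSD1B KO mice (Mb1-Cre+ NSD1fl/fl) had both alleles floxed. Each genotype had 2 libraries, and the labels do not state whether they came from different mice, nor their age or sex, so that p-values measure only the spread between libraries. The paper gives an age range, both sexes and littermate controls for its mice in general, not for single libraries. Counts of Nsd1 over the whole gene, which include exons outside the floxed part, were 497 and 480 in NSD1B WT and 284 and 280 in NSD1B KO. The level was significantly lower in NSD1B KO (log2 fold change -0.74, SE 0.11, edgeR's quasi-likelihood test, Benjamini-Hochberg adjusted p = 8.08e-08).

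Each B cell joins 1 V, 1 D and 1 J segment into a heavy chain exon during development in bone marrow or fetal liver. The V segment encodes most of the variable domain, including the first pair of antigen contact loops. V segments nearest to the D and J segments, among them the Ighv5 and Ighv2 families, are known to rearrange most often in early life, whereas the Ighv1 and Ighv8 families fill the distal part of the locus. The promoter of a V gene becomes strongly active after the joining, so the V gene RNA of a B cell population depends on which V segments its cells use. How far the counts follow that use was not tested. In bulk RNA, fewer cells using a V gene and less RNA per cell cannot be told apart.

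The sequences below show the 3′ ends of the V genes on which the results turn, where the joint to the D segment is made. They are the last 60 coding bases of the annotated transcript (mm10, minus strand, read 5′ to 3′), and the capitals mark the codon of the conserved second cysteine of the V domain.
Ighv11-2 (chr12:114048241-114048300): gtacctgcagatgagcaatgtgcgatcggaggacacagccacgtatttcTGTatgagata
Ighv12-3 (chr12:114366521-114366580): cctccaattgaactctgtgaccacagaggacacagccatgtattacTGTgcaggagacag
Ighv4-1 (chr12:113948282-113948341): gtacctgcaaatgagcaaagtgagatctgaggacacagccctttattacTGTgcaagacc
Ighv3-6 (chr12:114288152-114288211): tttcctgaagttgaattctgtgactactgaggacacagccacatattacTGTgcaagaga
Ighv5-17 (chr12:113859149-113859208): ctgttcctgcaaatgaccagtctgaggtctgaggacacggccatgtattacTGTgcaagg
Ighv5-6 (chr12:113625506-113625565): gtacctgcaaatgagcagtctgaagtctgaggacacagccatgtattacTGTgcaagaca
Ighv8-8 (chr12:115294062-115294121): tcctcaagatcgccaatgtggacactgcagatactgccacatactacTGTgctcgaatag
Ighv1-55 (chr12:115208095-115208154): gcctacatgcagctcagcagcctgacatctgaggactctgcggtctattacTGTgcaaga
Ighv1-69 (chr12:115623161-115623220): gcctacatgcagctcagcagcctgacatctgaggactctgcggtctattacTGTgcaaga
Ighv1-55, which was counted only in NSD1B WT, and Ighv1-69, which was counted only in NSD1B KO, had the same last 60 bases. Over the whole V exon they were 93.1% identical, with 21 edits in 305 aligned bases.

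For the most counted gene of each genotype the last 300 bases of the V exon are shown, up to the joint. The whole exon is 307 bases in Ighv11-2 and 305 in Ighv5-17. Ighv11-2 was the leading gene in NSD1B WT and Ighv5-17 in NSD1B KO, and their V exons were 75.4% identical (75 edits in 305 bases). The capitals again mark the cysteine codon.
Ighv11-2 (chr12:114048241-114048540): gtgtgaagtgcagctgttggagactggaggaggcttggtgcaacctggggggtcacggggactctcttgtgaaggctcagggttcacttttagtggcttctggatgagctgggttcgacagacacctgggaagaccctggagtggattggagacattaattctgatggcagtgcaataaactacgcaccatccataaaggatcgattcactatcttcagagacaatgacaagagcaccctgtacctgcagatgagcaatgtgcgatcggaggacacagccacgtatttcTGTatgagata
Ighv5-17 (chr12:113859149-113859448): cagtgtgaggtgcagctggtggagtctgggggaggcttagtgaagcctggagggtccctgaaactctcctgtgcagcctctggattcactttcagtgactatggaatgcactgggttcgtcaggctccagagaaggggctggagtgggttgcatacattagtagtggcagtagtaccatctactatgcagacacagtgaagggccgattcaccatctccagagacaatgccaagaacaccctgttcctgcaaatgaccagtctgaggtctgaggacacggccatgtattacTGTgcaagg

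The libraries held 6952351 and 7134170 gene counts in NSD1B WT and 7566834 and 6769118 in NSD1B KO. The heavy chain V genes took only a small part of them, with 2793 and 3067 counts in NSD1B WT and 1369 and 1290 counts in NSD1B KO. These counts were 0.0402% and 0.0430% of all gene counts in NSD1B WT and 0.0181% and 0.0191% in NSD1B KO. The 2 libraries of a genotype were not the same library, because their counts over all genes tested differed by more than sampling noise (chi-square per degree of freedom 2.95 in NSD1B WT and 3.77 in NSD1B KO).

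The summed level of the heavy chain V genes was significantly decreased in NSD1B KO. In CPM (counts scaled to a common library size with edgeR's TMM factors) the sum was 391 and 419.6 in NSD1B WT and 190.2 and 191.8 in NSD1B KO. The groups did not overlap, which held for 88.1% of all genes tested, and their means were 405 ± 20.3 and 191 ± 1.06 CPM (SD, n = 2 libraries each). The log2 fold change was -1.09 with an SE of 0.08 (edgeR's quasi-likelihood test, Benjamini-Hochberg adjusted p = 4.18e-16), and 41.1% of all features in that table were called lower. A gene or family was called where the adjusted p was under 0.05 and the fold over 1.2. The median log2 fold change over all genes was -0.10.

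The ratio of the heavy chain V counts to other genes of the B cell receptor also differed. Per 1000 counts of Ighm, the constant region gene of IgM, there were 81.8 and 86.8 Ighv counts in NSD1B WT and 52.1 and 53.7 in NSD1B KO. For each Ighv count there were 23.0 and 22.8 counts of kappa light chain V genes in NSD1B WT and 68.5 and 68.1 in NSD1B KO. Both ratios were separated by genotype without overlap, as were the levels of 88.1% of all genes tested. The ratios were not tested.

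Of the 185 members, 52 had a count in any library and 133 had none, among them 63 functional V genes. In NSD1B WT 44 genes were counted in each library, and in NSD1B KO 24 and 25 genes were counted. The effective number of genes, which is the exponential of the Shannon entropy of the shares and equals the number of genes if all shares were equal, was 28.7 and 28.5 in NSD1B WT and 18.6 in both NSD1B KO libraries. The 10 most counted genes held 58.1% and 58.5% of the Ighv counts in NSD1B WT and 66.8% and 68.5% in NSD1B KO. The V gene counts were thus spread over fewer genes in the NSD1B KO libraries, which also had fewer Ighv counts.

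Which V genes were counted was nearly the same in libraries of 1 genotype and different between the genotypes. The part of the Ighv counts that 2 libraries share, summed over genes as the lower of the 2 shares, was 93.3% for the NSD1B WT pair and 92.9% for the NSD1B KO pair. It lay between 43.4% and 44.6% for the 4 pairs of different genotype. The Ighv counts of the 2 libraries of a genotype differed little beyond sampling noise (chi-square per degree of freedom 1.23 and 1.26), whereas pairs of different genotype gave 31.3 to 35.5. No gene had 15 or more counts in 1 library and 0 in the other of the same genotype, and 27 or 28 genes did so between genotypes.

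**Figure D1:**
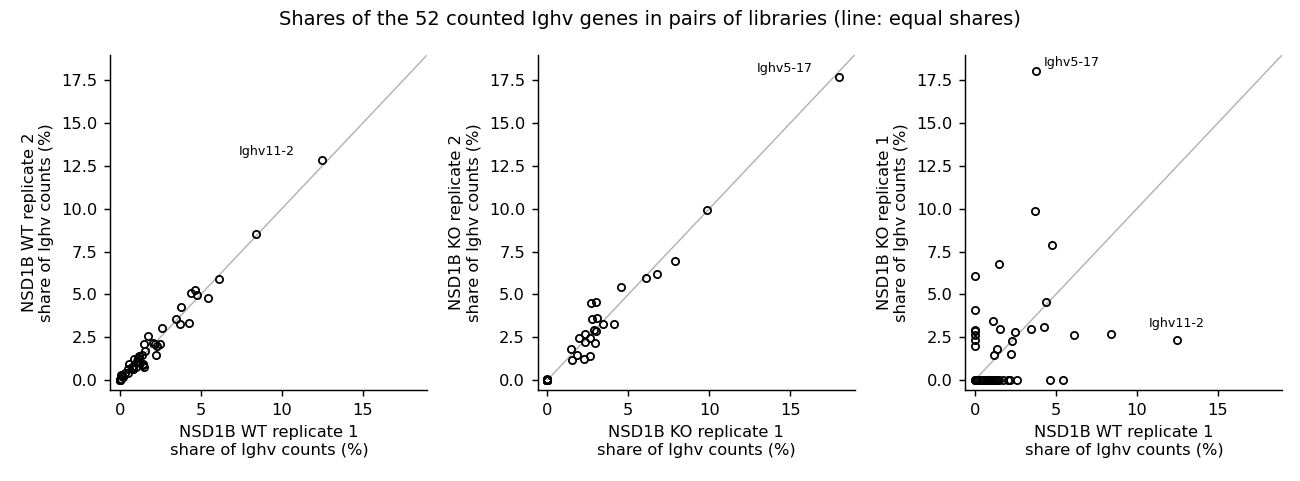
Share of all Ighv counts (%) of each of the 52 counted genes in 1 library against another, for the NSD1B WT pair, the NSD1B KO pair and replicate 1 of both genotypes. Points lie near the line of equal shares within a genotype, and between genotypes many lie on the axes, with Ighv5-17 far above the line and Ighv11-2 far below it.

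The family Ighv5 held the largest share in NSD1B KO, and Ighv11, Ighv3, Ighv4, Ighv6, Ighv2, Ighv7 and Ighv14 held smaller shares than in NSD1B WT. Shares are given for NSD1B WT replicates 1 and 2 and then NSD1B KO replicates 1 and 2. Ighv5 took 15.5%, 16.4%, 39.5% and 40.9% of the Ighv counts. This was the largest shift of any family in percentage points. Its groups did not overlap, which held for the levels of 88.1% of all genes tested. With the libraries scaled to their Ighv totals, so that the test is of the share, the log2 fold change of Ighv5 was 1.33 (SE 0.12, edgeR's quasi-likelihood test, Benjamini-Hochberg adjusted p = 1.42e-16). In the same test 3 of 13 families were called higher, 7 lower and 3 neither, where 64.2% of all features were called higher and 22.5% lower, since scaling to the Ighv total shifts every other gene. Of the 7, Ighv3 and Ighv14 had no NSD1B KO count and entered the test through NSD1B WT alone, so that their calls follow from how they passed the filter.

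The other families with a higher share in NSD1B KO were Ighv8 and Ighv9. Ighv8, a distal family, held 4.08%, 4.56%, 6.79% and 6.20%, which gave a log2 fold change of the share of 0.59 (SE 0.21, adjusted p = 0.00937 by the same edgeR test). Ighv9 held 5.91%, 6.23%, 10.5% and 8.37%, with a log2 fold change of the share of 0.64 (SE 0.19, adjusted p = 0.00121 by the same edgeR test). In both families the NSD1B KO shares lay above both NSD1B WT shares. Their levels, in contrast, were lower in NSD1B KO, by log2 fold changes of -0.50 and -0.45.

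Among the families with a lower share, Ighv11 fell most among those still counted in both genotypes. It held 12.5%, 12.8%, 2.34% and 2.25% of the Ighv counts, all of them from Ighv11-2. Ighv4, counted through Ighv4-1 alone, held 8.41%, 8.51%, 2.70% and 4.50%, and Ighv6 held 7.59%, 6.68%, 2.63% and 2.48%. Ighv2 held 4.37%, 3.52%, 1.53% and 1.16%. Each of these families was separated by genotype without overlap, as were the levels of 88.1% of all genes tested. Their log2 fold changes of the share were -2.46, -1.24, -1.48 and -1.54. The share of Ighv7 moved less, from 4.26% and 4.27% to 2.99% and 2.87% (log2 fold change of the share -0.54, adjusted p = 0.0438 by the same edgeR test).

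No count was found for Ighv3 and Ighv14 in NSD1B KO. Ighv3 held 7.66% and 6.88% of the NSD1B WT counts, from 214 and 211 counts, and Ighv14 held 1.54% and 1.43%, from 43 and 44 counts. A count of 0 allows a share of up to 0.219% and 0.233% in the NSD1B KO libraries, taken as 3 counts of the Ighv total and covering counting error only. Against 3 counts over both NSD1B KO libraries, the level of Ighv3 was at least 136-fold lower and that of Ighv14 at least 27.9-fold lower.

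Ighv1, Ighv10 and Ighv12 were not called in the share test. The largest family, Ighv1, held 22.8%, 23.0%, 24.8% and 24.5%, although 16 of its 93 genes were counted in NSD1B WT and 10 in NSD1B KO. Ighv10 held 2.86%, 3.59%, 3.43% and 3.26%, and its groups overlapped. Ighv12 held 2.47%, 2.09%, 2.78% and 3.57%. Ighv13, Ighv15 and Ighv16 had no count in any library.

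**Figure D2:**
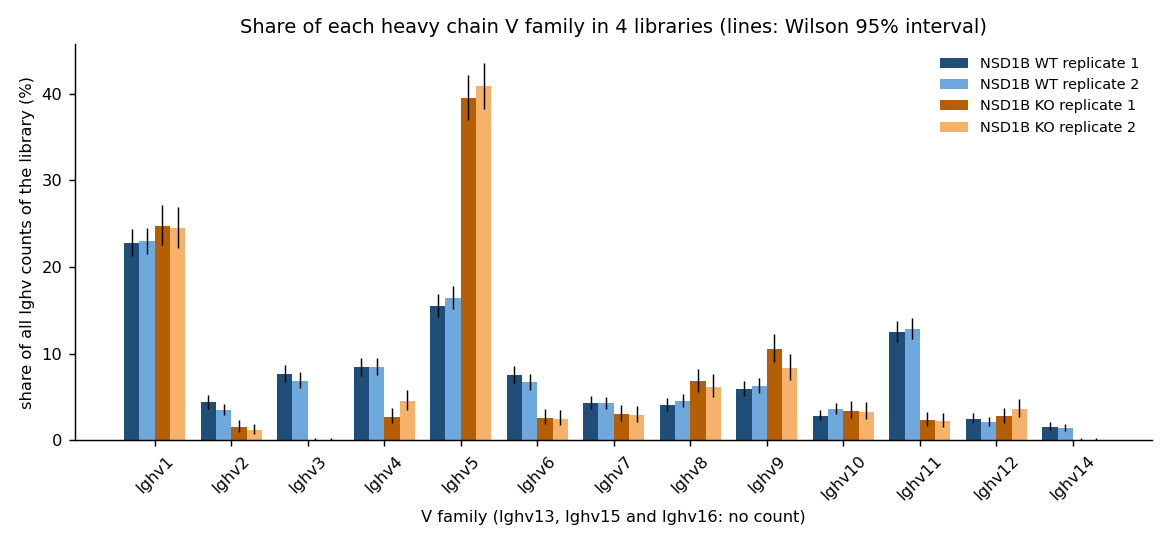
Share of all Ighv counts (%) of the 13 counted V families in the 4 libraries, with Wilson 95% intervals as lines. Ighv5 rises from 15.5% and 16.4% in NSD1B WT to 39.5% and 40.9% in NSD1B KO, Ighv11 falls from over 12% to under 3%, and Ighv3 and Ighv14 have no NSD1B KO counts.

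On the level scale the direction was more uniform, because the V gene sum itself was lower. The levels of 12 of 13 families were called lower in NSD1B KO, in a table in which 41.0% of all features were called lower. The calls of Ighv3 and Ighv14, at 0 in NSD1B KO, again follow from the filter, and where at least 1 CPM was required in all 4 libraries 10 of 11 families were called lower. Ighv5 was the exception, with 60.7 and 68.9 CPM in NSD1B WT, 75.2 and 78.3 CPM in NSD1B KO and means of 64.8 ± 5.80 and 76.8 ± 2.23 CPM (SD, n = 2) in NSD1B WT and NSD1B KO. Its log2 fold change was 0.24 (SE 0.10, adjusted p = 0.0306 by edgeR's quasi-likelihood test) and stayed below the fold threshold of 1.2. It was called higher without NSD1B WT replicate 2 (log2 fold change 0.36) or without NSD1B KO replicate 1 (0.27). The calls for Ighv8 and Ighv9 were lost without NSD1B WT replicate 2 (-0.34 and -0.33) and without NSD1B KO replicate 2 (-0.44 and -0.29), and that for Ighv12 (-0.61) without NSD1B WT replicate 1 (-0.50), NSD1B WT replicate 2 (-0.65) or NSD1B KO replicate 1 (-0.43).

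Within the Ighv5 family the genes moved apart. Ighv5-17 had 106, 131, 247 and 228 counts, or 3.80%, 4.27%, 18.0% and 17.7% of the Ighv counts. The Wilson 95% intervals of these shares reached at most 5.05% in NSD1B WT and began at 15.7% in NSD1B KO. Its level rose from 14.8 and 17.9 CPM to 34.3 and 33.9 CPM, with a log2 fold change of 1.06 (SE 0.16, adjusted p = 8.02e-08 by edgeR's quasi-likelihood test). Ighv5-17 became the most counted V gene in both NSD1B KO libraries.

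Ighv5-6, which is 90.8% identical to Ighv5-17 over the V exon, had 104, 100, 135 and 128 counts and shares of 3.72%, 3.26%, 9.86% and 9.92%. Its level was higher in NSD1B KO by a log2 fold change of 0.42 (SE 0.19, adjusted p = 0.0417 by edgeR's quasi-likelihood test). The call for Ighv5-6 was lost with any 1 library left out, at log2 fold changes of 0.40 to 0.50. Ighv5-4, its nearest copy at 95.4% identity, had 123, 155, 62 and 70 counts and a lower level (log2 fold change -1.02, SE 0.21). As a share of the Ighv counts Ighv5-4 was nearly level, with 4.40%, 5.05%, 4.53% and 5.43%. Ighv5-16 had 44, 52, 41 and 59 counts, its groups overlapped, and it was not called on the level scale. Ighv5-12 was counted only in NSD1B KO (56 and 42) and Ighv5-9-1 only in NSD1B WT (57 and 66).

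Ighv11-2 and Ighv12-3 encode the V segments known from B-1a cell antibodies to phosphatidylcholine. Ighv11-2 had 349, 394, 32 and 29 counts, and its shares were 12.5%, 12.8%, 2.34% and 2.25%. The Wilson 95% intervals began at 11.3% in NSD1B WT and ended at 3.28% in NSD1B KO. Its level fell from 48.8 and 53.9 CPM to 4.45 and 4.31 CPM, with a log2 fold change of -3.55 (SE 0.19, adjusted p = 4.02e-22 by edgeR's quasi-likelihood test). This was the largest change among the genes counted in both genotypes.

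Ighv12-3 did not follow Ighv11-2. It had 69, 64, 38 and 46 counts, and its level was lower by a log2 fold change of -0.61 (SE 0.28, adjusted p = 0.0437 by edgeR's quasi-likelihood test). The call was lost without NSD1B WT replicate 1 (-0.50), without NSD1B WT replicate 2 (-0.65) and without NSD1B KO replicate 1 (-0.43). Its share was 2.47%, 2.09%, 2.78% and 3.57%, and the share test gave 0.48 (SE 0.29, adjusted p = 0.113 by the same edgeR test). The V exons of Ighv11-2 and Ighv12-3 are 60.3% identical. The nearest copy of Ighv11-2 is Ighv11-1, at 98.7% identity with 4 edits in 307 bases, and Ighv11-1 had no count in any library. How reads that fit both copies were counted was not tested.

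The other genes chosen for their known use gave little signal. Ighv7-1, the V gene of the classical antibodies to phosphorylcholine, had 23 and 22 counts in NSD1B WT and 0 in both NSD1B KO libraries, a level at least 14.4-fold lower. Ighv5-2, the D-proximal gene that is preferred in early B cell development, and Ighv1-72, the gene of the C57BL/6 response to the hapten NP, had 0 counts in all 4 libraries.

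Ighv4-1 and Ighv6-3 also stood high in NSD1B WT and fell in NSD1B KO. Ighv4-1 had 235, 261, 37 and 58 counts, and its level fell from 34.3 ± 1.99 to 6.88 ± 2.46 CPM (SD, n = 2, log2 fold change -2.32, SE 0.20). Ighv6-3 had 171, 181, 36 and 32 counts, and its log2 fold change was -2.31 (SE 0.23). Both were lower also in the share test, with -1.24 and -1.23. The nearest copy of Ighv4-1, Ighv4-2 at 95.8% identity, had no count in any library, and that of Ighv6-3, Ighv6-6 at 92.6% identity, had 41 and 24 counts in NSD1B WT and 0 in NSD1B KO.

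Ighv8-8 rose, whereas the remaining leading genes fell with the V gene sum. Ighv8-8 had 41, 65, 93 and 80 counts, and its shares were 1.47%, 2.12%, 6.79% and 6.20%. Its level rose by a log2 fold change of 0.76 (SE 0.25, adjusted p = 0.00612 by edgeR's quasi-likelihood test), a call that was lost without NSD1B WT replicate 1 (0.51). Ighv9-3 had 133, 152, 108 and 90 counts and a log2 fold change of -0.47 (SE 0.19), lost without NSD1B WT replicate 2 (-0.37) or NSD1B KO replicate 2 (-0.39), and its share was higher by 0.61. Ighv1-26 had 120, 102, 42 and 47 counts and Ighv7-3 had 96, 109, 41 and 37, with log2 fold changes of -1.26 and -1.34. Neither changed its share beyond the threshold.

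Across the 17 genes counted in both genotypes, 3 were called higher in level (Ighv5-17, Ighv8-8 and Ighv5-6) and 11 lower, and Ighv1-53, Ighv5-16 and Ighv10-1 were not called. Those not yet named, Ighv2-2, Ighv1-5 and Ighv1-19, were lower by log2 fold changes of -1.53, -1.36 and -0.76, and the call for Ighv1-19 (adjusted p = 0.0489 by edgeR's quasi-likelihood test) was lost with any 1 library left out (-0.91 to -0.55). Ighv10-1 had 31, 32, 47 and 42 counts (log2 fold change 0.55, SE 0.32). Of all 11657 genes tested, 37.1% were called higher and 41.1% lower. The median log2 fold change of the 17 genes, which were picked as counted in both genotypes, was -0.76. Over all 46 tested Ighv genes, with those at 0 in a genotype set to their bound, it was -2.69, and over all genes tested it was -0.10. Level groups did not overlap for 16 of the 17, and 88.1% of all genes tested did not overlap either. In the share test 6 of the 17 were called higher, 3 lower (Ighv11-2, Ighv4-1 and Ighv6-3) and 8 neither, where 64.1% of all genes were called higher and 22.6% lower.

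**Figure D3:**
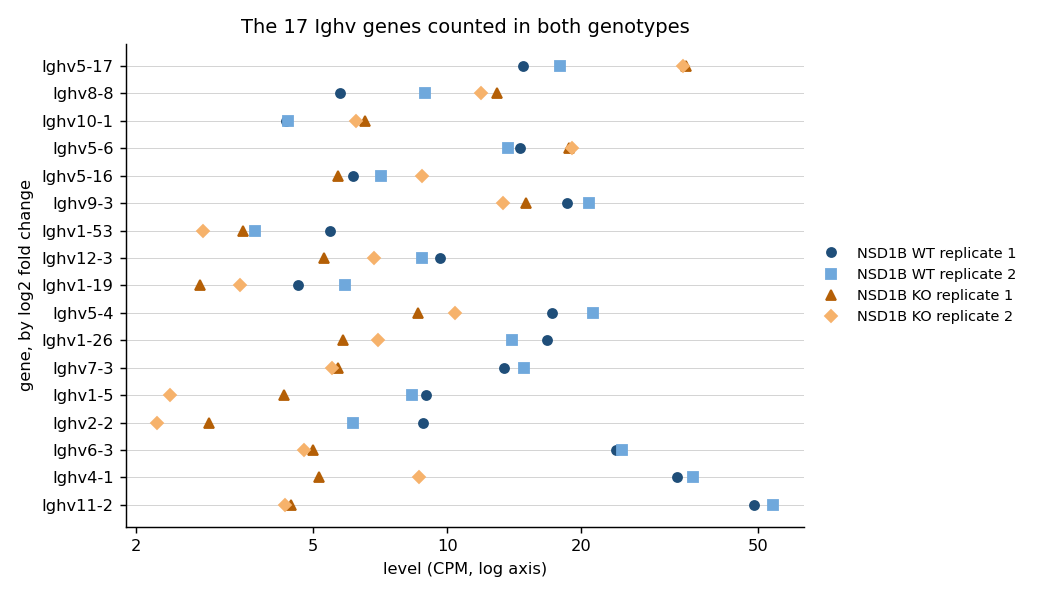
Level in CPM (log axis) of the 17 Ighv genes counted in both genotypes, 1 point per library, ordered by log2 fold change. Ighv11-2, Ighv4-1 and Ighv6-3 lie far to the right in NSD1B WT, Ighv5-17 and Ighv8-8 lie to the right in NSD1B KO, and only the groups of Ighv5-16 overlap.

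A large part of the difference lay in genes that were counted in 1 genotype and at 0 in both libraries of the other. There were 27 such genes in NSD1B WT and 8 in NSD1B KO. The NSD1B WT genes held 34.8% and 35.6% of the Ighv counts of those libraries, and the NSD1B KO genes held 22.9% and 21.0% of theirs. The filter on low counts passed 22 of the 27 and 7 of the 8, each through the genotype in which it was counted, so their calls (22 lower, 7 higher) follow from how they passed. In all, 46 of 185 members passed the filter, and 29 of the 46, or 63.0%, were at 0 in 1 genotype, beside 18.9% of all genes tested.

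Of the genes counted only in NSD1B WT, 15 had 50 counts or more over the 2 libraries. The highest were Ighv3-6 with 152 and 146 counts, Ighv1-55 with 129 and 162, and Ighv1-64 with 73 and 94. Against 3 counts over the NSD1B KO libraries their levels were at least 95.7-fold, 93.4-fold and 53.6-fold lower. Ighv10-3 (49 and 78), Ighv3-4 (61 and 64) and Ighv5-9-1 (57 and 66) followed. The other 9 were Ighv8-12, Ighv9-1, Ighv2-3, Ighv1-63, Ighv8-6, Ighv6-6, Ighv1-85, Ighv1-18 and Ighv1-59, with 24 to 45 counts in a library. The remaining 12 of the 27 genes, Ighv7-1 and both Ighv14 genes among them, had 1 to 29 counts in a library. The 15 came from 8 families and lay 181.4 to 2570.2 kb from the Ighj segments.

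Of the genes counted only in NSD1B KO, 7 had 50 counts or more. Ighv1-69 led with 83 and 77 counts, or 6.06% and 5.97% of the Ighv counts, and against 3 counts over the NSD1B WT libraries its level was at least 55.4-fold higher. Ighv5-12 had 56 and 42 counts, Ighv1-83 had 39 and 38, Ighv1-2 had 40 and 28, and Ighv1-52 had 32 and 35. Ighv1-4 had 27 and 32 counts and Ighv9-4 had 36 and 18. The eighth gene, Ighv1-81, had 1 count in 1 library.

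**Figure D4:**
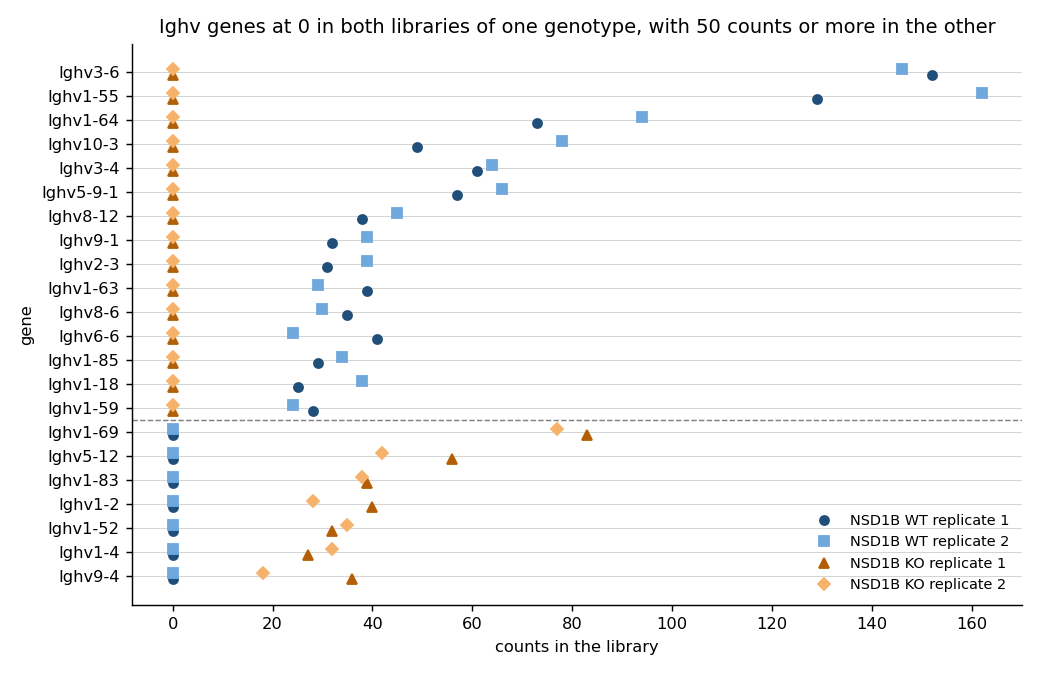
Counts in each of the 4 libraries for the 22 Ighv genes at 0 in both libraries of a genotype and with 50 counts or more in the other. The 15 genes above the dashed line have 0 counts in both NSD1B KO libraries and 24 to 162 in the NSD1B WT libraries, and the 7 below it have 0 in NSD1B WT and 18 to 83 in NSD1B KO.

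Both Ighv1-2 and Ighv1-83 are annotated as V pseudogenes, and they were the counted ones among 70. Pseudogenes held 79 and 66 counts in NSD1B KO, which was 5.77% and 5.12% of the Ighv counts. They held 0 counts in NSD1B WT, which allows shares of up to 0.107% and 0.0978%. The share of Ighv1 depended on these 2 genes. With functional genes alone, the difference of its share between the genotypes changed sign, from a gain to -2.59 percentage points.

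Along the locus, counted genes lay over its whole length in both genotypes. The families Ighv1 and Ighv8, which begin 903 kb from the Ighj segments and reach to 2579.8 kb, held 26.9% and 27.5% of the Ighv counts in NSD1B WT and 31.6% and 30.7% in NSD1B KO. The remaining families lie between 143.1 and 1134.7 kb and held 73.1% and 72.5% in NSD1B WT and 68.4% and 69.3% in NSD1B KO. The largest increase and decrease among genes counted in both genotypes were in the proximal part, with Ighv5-17 at 429.3 kb and Ighv11-2 at 618.4 kb. Genes counted in both genotypes lay 158.4 to 1864.2 kb away, those of NSD1B WT alone 181.4 to 2570.2 kb and those of NSD1B KO alone 272.3 to 2534.0 kb.

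**Figure D5:**
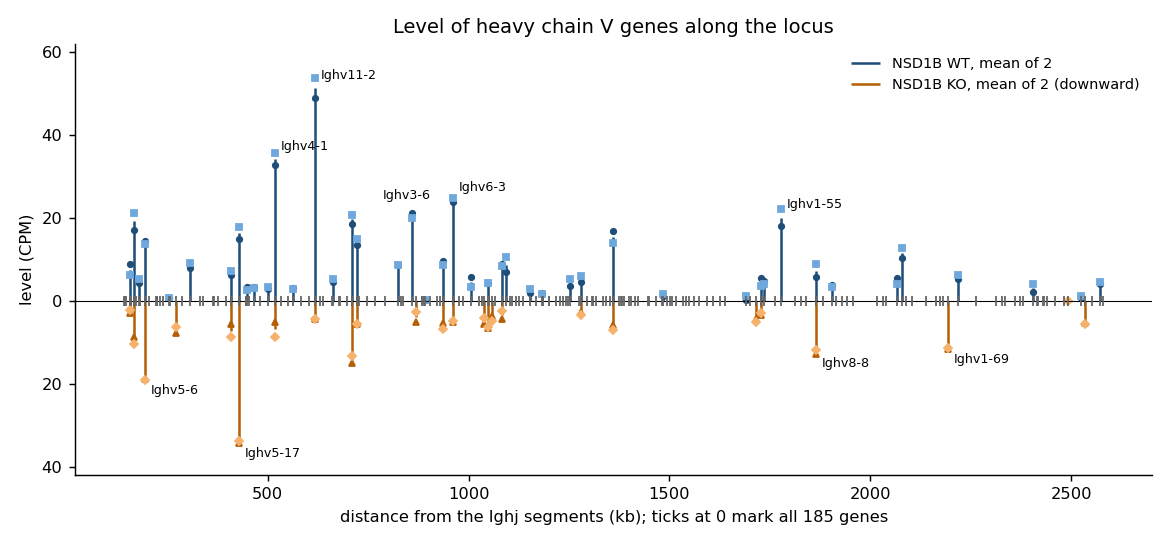
Level (CPM) of each Ighv gene against its distance from the Ighj segments in kb, with NSD1B WT upward and NSD1B KO downward. Vertical lines are means of 2 libraries, points are single libraries, and ticks at 0 mark all 185 genes. Ighv11-2 and Ighv4-1 are the tallest NSD1B WT lines and Ighv5-17 the tallest NSD1B KO line, with counted genes along the whole locus in both.

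Sequence likeness to another V gene was similar in counted and uncounted genes. The median identity of a counted gene's V exon to its nearest copy was 95.55%, and that of the uncounted functional genes was 95.1%. Only 3 counted genes had a copy at 98% identity or more, namely Ighv11-2, Ighv1-52 and Ighv2-2. No counted member shared exon bases with another gene. The exons of the counted genes summed to 347 to 480 bases, with 461 in Ighv11-2. These medians describe the annotation and do not show how reads from near-identical copies were assigned.

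Genes that act on the heavy chain locus were set beside the V genes. The recombination genes Rag1, Rag2 and Dntt had 0 counts in all 4 libraries. Of 12 tested genes of V(D)J recombination and end joining, 4 were called higher and 6 lower, with a median log2 fold change of -0.45. Dclre1c and Polm were at 0 in NSD1B WT, and Nhej1 and Poll in NSD1B KO. These genes passed the filter through the other genotype alone, so that their calls follow from it. The most abundant of the 12 was Hmgb1 with 318 ± 8.57 CPM in NSD1B WT and 461 ± 33.2 CPM in NSD1B KO (log2 fold change 0.53). Prkdc fell, with 264, 275, 1 and 5 counts. Of 16 regulators of the locus, 8 were called higher and 6 lower (median 0.28). Stag2, a cohesin subunit, was higher by 1.26 and Ebf1, a B lineage factor, by 0.75. The lower ones were E2f2 (-4.10), Pax5 (-3.29), Tcf3 (-2.98), Foxo1 (-1.08), Rad21 (-0.77) and Ezh2. Ezh2, with 40, 20, 0 and 0 counts, passed the filter through NSD1B WT alone, so that its call follows from it. The octamer factors Pou2f1 and Pou2f2, which bind the promoters of V genes, were lower by log2 fold changes of -2.24 and -1.47. Pou2af1, of the same list, was not called (-0.22). Over all genes tested, 37.1% were called higher and 41.1% lower.

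A heavy chain transcript joins a V exon to a constant region gene. Of the constant genes, 2 of 5 tested were called higher and 3 lower, beside 37.1% and 41.1% of all genes tested. Ighm fell from 4805 ± 37.9 to 3612 ± 54.2 CPM (SD, n = 2, log2 fold change -0.41), Igha fell by 1.46 on the log2 scale, and Ighd rose by 0.66. Ighg2b had 20, 20, 365 and 283 counts (log2 fold change 4.06). The Ighv sum, at -1.09, lay between the changes of Ighm and Igha.

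Markers of other cells moved with the genotype as well, and their part in the V gene results was not tested. The summed level of 4 erythroid genes was 25.7 and 23.4 CPM in NSD1B WT and 1502 and 1249 CPM in NSD1B KO, with 3 of 3 tested genes called higher. That of 5 myeloid genes was 4569 and 4672 against 6070 and 5720 CPM, with 3 called higher and 2 lower. Of the T cell genes 2 of 2 tested were higher (26.9 and 23.9 against 52.0 and 49.8 CPM), and Cd4 and Cd8a were at 0. The plasma cell markers Sdc1 and Tnfrsf17 were at 0 in all libraries, and the summed level of 8 such genes was 344 and 331 against 273 and 281 CPM, with 2 of 6 tested higher and 3 lower.

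The B lineage lists moved in different directions. All 6 general B cell genes, Cd79a and Ms4a1 among them, were counted in each library, and 4 were lower, 0 higher and 2 neither by edgeR's test (summed level 12768 and 12537 against 12095 and 11102 CPM). Of 5 tested germinal centre genes 4 were lower and 1 higher. Of 5 genes of B1 cells 3 were higher and 2 lower (474 and 497 against 324 and 314 CPM). The sum was mostly Bhlhe41, with 430.5 and 451 CPM in NSD1B WT and 238 and 233 CPM in NSD1B KO (log2 fold change -0.90), and Spn was lower as well (-1.32). Ctla4 (2.73) and Zbtb32 (0.64) were higher, and Cd5 had 0, 0, 120 and 103 counts. Of the early B cell genes only Cd93 was counted, with 0, 0, 41 and 26 counts. None of these lists was set against the V gene shares by a test.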

How the data were processed

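RNA of B220+ spleen B cells from 2 NSD1B WT and 2 NSD1B KO libraries had been sequenced as paired reads of 150 bases. The authors mapped reads to mm10 with Bowtie2, which does not split reads across introns, and deposited raw counts per gene. The sources used here do not name the counter, its strand setting or its annotation. Between 44.3% and 44.6% of a library's reads fell in no gene, 11.2% to 13.2% were not unique and 2.21% to 2.41% were ambiguous.

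Counts were tested in edgeR 4.0.16 (TMM, filterByExpr with a minimum of 10, quasi-likelihood test, Benjamini-Hochberg adjustment over the 11657 genes tested). Families and the Ighv sum replaced the single V genes in otherwise equal tables, and shares were tested with library sizes set to the Ighv total. Genes at 0 in a genotype were given a bound from 3 counts over the group. Shares have Wilson 95% intervals, which cover counting error only. With 2 libraries against 2, an exact permutation test cannot go below p = 0.333, and none was used. On simulated counts for this comparison over 11280 genes, 95.5% of 200 genes changed by 1 log2 unit were called, and 0.0722% of unchanged genes. All genes were given the common dispersion (0.0054), and the changed genes were drawn only from those above a minimum level. The 95.5% therefore does not cover V genes of low level.

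The members and gene lists were chosen with earlier results of these data known. The genes named were the 10 with the highest mean share, up to 5 per direction with the largest called changes with an average log2 CPM of 3 or more and no overlap, those at 0 in 1 genotype with 50 counts or more in the other, 5 fixed genes, and the most abundant members of each list. Nsd1, further counted V genes and further list genes, among them those at 0, were added after their values were seen. Alternatives were DESeq2 1.42.0, other scalings and filters, a replicate block and leaving out each library. The RefSeq promoter table held 0 Ighv entries, so no promoter is shown.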

Additional observations from a re-analysis of the deposited data

How the results depend on the processing

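The lower summed level of the heavy chain V genes kept its direction and its call under each alternative run, with log2 fold changes from -1.16 (library size alone) to -1.01, and from -1.10 to -1.01 with 1 library left out. The counts of called genes, 10 higher and 33 lower, were 2 and 9 where at least 1 CPM was required in all 4 libraries, a filter that removes genes at 0. It tested the 17 genes counted in both genotypes, of which the main run called 3 higher and 11 lower. Calls of genes that were not at 0 were thus lost as well. With DESeq2, run without that low-count filter on 52 Ighv genes in place of 46, the counts of called genes were 8 and 32. Tool and filter changed together there. Calls were lost for Ighv5-6, Ighv8-8, Ighv9-3, Ighv12-3 and Ighv1-19 and for the families Ighv8, Ighv9 and Ighv12. Scaled to the Ighv total, 3 families were higher and 7 lower in place of 0 and 12, and the log2 fold changes of Ighv1 (0.11), Ighv8 (0.59), Ighv9 (0.64), Ighv10 (0.050), Ighv12 (0.48), Ighv5-4 (0.070), Ighv9-3 (0.61), Ighv12-3 (0.48), Ighv1-19 (0.32) and Ighv1-53 (0.54) changed sign, as the scaling takes out the fall of the sum. That scaling moved the median log2 fold change of all genes to 0.98, and library size alone moved it to -0.18. With 1 library left out, 0 to 1 families were higher (1 without NSD1B WT replicate 2 or NSD1B KO replicate 1) and 9 to 11 lower, and DESeq2 called 9 lower. The difference in Ighv5 share, 24.2 percentage points, was 23.3 per kb of exon and 26.5 with functional genes only. That of Ighv11, -10.4, was -8.67 per kb. That of Ighv1 was -2.59 with functional genes only, and that of Ighv10 was -0.24 without NSD1B WT replicate 1. The log2 fold change of Ighv5-16 ran from -0.21 (without NSD1B KO replicate 2) to 0.40 (without NSD1B KO replicate 1). The difference in effective number of genes, -9.95, was -11.6 with functional genes only and -6.72 by the inverse Simpson index.

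Libraries share only a replicate number, with a correlation of same-number deviations of 0.06 over 11657 genes. With the replicate block, 9 genes were higher and 31 lower, 11 families were lower and the summed level had a log2 fold change of -1.09. Calls for Ighv12, Ighv12-3, Ighv1-19 and Ighv5-6 were lost under the block.

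With 1290 to 3067 Ighv counts in a library and 2 libraries per genotype, genes with few counts are poorly measured, and whether a gene at 0 is unused, or its reads were lost in mapping, was not tested.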

Other observations

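The D and J segments of the heavy chain locus had few counts. The 4 Ighj segments had 18 and 16 counts in NSD1B WT and 2 in each NSD1B KO library. Ighj1 had 12, 5, 0 and 0 counts and Ighj2 had 0, 0, 2 and 2. The Ighd segments had 6, 17, 18 and 14 counts in all, and 4 of 20 were counted. Ighd1-1 (3, 10, 0 and 0) and Ighd2-7 (3, 7, 0 and 0) were counted only in NSD1B WT, and Ighd5-2 (0, 0, 14 and 11) and Ighd4-1 (0, 0, 4 and 3) only in NSD1B KO.

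The kappa light chain V genes showed the same separation of genotypes with far more counts. Of 160 Igkv genes 102 were counted, 69 in both genotypes, 27 in NSD1B WT alone and 6 in NSD1B KO alone. The part of the Igkv counts that 2 libraries share was 97.85% and 97.75% within the genotypes and 51.1% to 51.7% between them, where the heavy chain V genes gave 92.9% to 93.3% and 43.4% to 44.6%. The Igkv counts were 64118 and 69872 in NSD1B WT and 93761 and 87803 in NSD1B KO.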
